A study of Mus musculus with 20 samples.

Results

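Primitive endoderm is the layer of cells that covers the inner cell mass of the late blastocyst, and it gives rise to the visceral and parietal endoderm of the yolk sac. Visceral endoderm takes up maternal nutrients through large endocytic receptors and secretes serum proteins such as alpha-fetoprotein, transthyretin and apolipoproteins before the liver exists. Parietal endoderm lays down the laminin and collagen of Reichert's membrane. A small share of mouse embryonic stem cells in serum and LIF turns on primitive endoderm regulators such as Gata6, and embryoid bodies can form an outer layer of endoderm.

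The 9 genes described here mark these cells and were chosen by name, as 9 of the 25199 genes found in the 3 tables of raw counts. Of these, 4 encode transcription factors (Gata4, Gata6, Sox17 and Sox7), 2 encode proteins of endocytosis (Dab2 and Cubn) and 3 encode secreted serum proteins (Afp, Ttr and Apoa1). All 9 were present in the embryo and embryoid body (EB) tables, and 7 in the table of embryonic stem cells (mESCs), which holds no row for Afp or Ttr. Single whole C57BL/6 embryos, chosen in the paper for having no visible abnormalities, were taken at E8.5. Of these 6 were Zmym2-/- (3 of each sex) and 6 Zmym2+/+ (3 of each sex). The other libraries came from V6.5 lines (C57BL/6x129/SvJae), either Zmym2-/- (KO) or non-target controls (NT). At each stage there were 2 KO and 2 NT libraries, as mESCs in serum and LIF on day 0 and as EBs on day 3. The mouse allele is an early frameshift in the first coding exon. Mice and lines were made by CRISPR-Cas9 with the same guide, and embryos lack Zmym2 in all cells. Lines were grown from single clones, so that a line is 1 clone of its genotype. Libraries held 32016880 to 64057608 counts. Pluripotent cell markers (8 genes) summed to 4912 to 7028 CPM (counts scaled to the library's total with TMM factors) in mESCs and 2499 to 2683 CPM in EBs.

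Zmym2, a transcriptional repressor, was measured first. It averaged 28.0 ± 1.37 CPM in KO and 68.8 ± 2.86 CPM in NT mESCs, and 31.7 ± 1.08 CPM in KO and 92.9 ± 0.162 CPM in NT EBs (SD, n = 2 each), with both KO libraries below both NT libraries. In embryos its level averaged 47.7 ± 15.5 CPM in Zmym2-/- and 89.8 ± 27.6 CPM in Zmym2+/+ (SD, n = 6 each), with overlapping values (log2 fold change -0.91 ± 0.25, SE, adjusted p = 0.226, edgeR).

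All members are protein-coding in GENCODE M21, on the mouse build GRCm38 (mm10). The transcription factors are Gata4 at chr14:63198922-63271692 on the minus strand, Sox7 on the same chromosome at chr14:63943673-63950732 on the plus strand, Sox17 at chr1:4490931-4497354 on the minus strand and Gata6 at chr18:11052064-11085635 on the plus strand. Dab2 lies at chr15:6299788-6440712 on the plus strand and Cubn at chr2:13276338-13491813 on the minus strand. The genes of secreted proteins are all on the plus strand, Afp at chr5:90490737-90508907, Ttr at chr18:20665280-20674321 and Apoa1 at chr9:46228580-46230466.

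Levels per gene length (RPKM, the authors' values) ordered the members by role in embryos, from secreted proteins to transcription factors. In Zmym2-/- embryos the means were 624.0 RPKM for Apoa1, 314.5 for Ttr, 187.2 for Afp, 53.2 for Dab2, 46.6 for Cubn, 17.8 for Gata4, 13.7 for Gata6, 5.51 for Sox17 and 4.00 for Sox7. In Zmym2+/+ embryos Apoa1, the main protein of high-density lipoprotein, was at 416.1 ± 124.4 RPKM, Ttr, a carrier of thyroid hormone and retinol, at 234.9 ± 54.6 RPKM and Afp, the fetal counterpart of albumin, at 134.7 ± 69.3 RPKM (SD, n = 6 each). The endocytic genes followed, with 37.6 ± 9.39 RPKM for Dab2, a clathrin adaptor, and 24.1 ± 11.8 RPKM for Cubn, which encodes cubilin, the receptor of intrinsic factor and apolipoprotein A-I. Transcription factors, which heart, gut and endothelial precursors of the embryo also use, were lowest, at 16.6 ± 9.37 RPKM for Gata6, 15.9 ± 6.53 for Gata4, 5.91 ± 3.01 for Sox17 and 5.58 ± 4.07 for Sox7. Gata6 and Gata4 differed by less than their spread, as did Sox17 and Sox7, while the secreted proteins were ordered Apoa1, Ttr, Afp in the means of both genotypes. In the lines no member reached 3 RPKM in any library. The highest was Ttr in NT EB library 1, at 2.34 RPKM, and the lowest were Afp and Ttr in mESCs, where Afp was listed at 0 in 3 of 4 libraries and Ttr in 3 of 4. The embryo and line values come from separate tables, so that the levels are set side by side without a test.

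**Figure D1:**
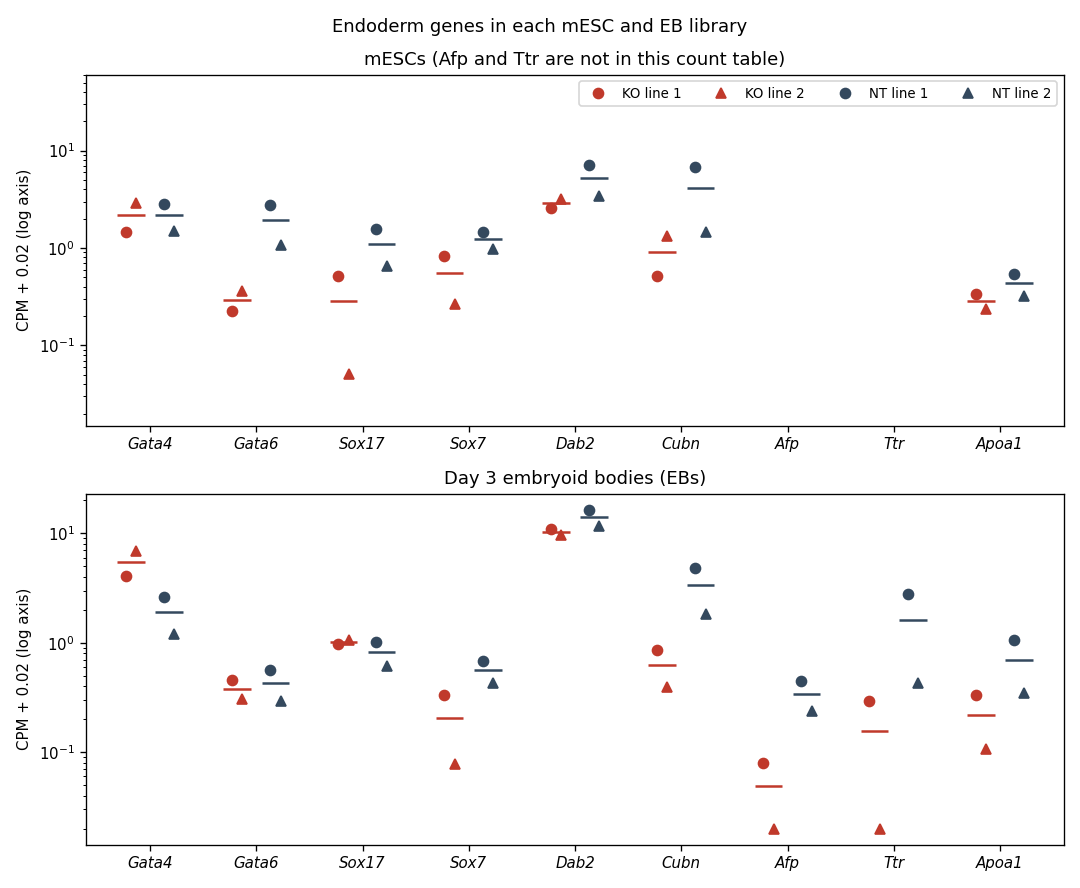
Levels of the 9 endoderm genes in CPM, with 0.02 added, on a log axis, in mESCs (top) and day 3 EBs (bottom). Each point is 1 library, with Zmym2-/- lines in red left of NT lines in dark blue and bars at the mean of 2. Circles mark line number 1 and triangles line number 2. In mESCs Gata6, Sox17, Sox7, Dab2 and Cubn lie lower in both Zmym2-/- lines, as do 29.2% of all genes. In EBs Sox7, Dab2, Cubn, Afp, Ttr and Apoa1 lie lower, as do 24.4%, and Gata4 lies higher, as do 26.2%. NT line 1 is above NT line 2 for every gene shown.

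In mESCs, Gata6 and Cubn were lower in KO than in NT lines, and no member was higher. Gata6, the factor that sets primitive endoderm apart from epiblast, had 0.204 and 0.34 CPM in KO mESCs, against 2.78 and 1.04 CPM in NT mESCs. These are 7 and 11 reads against 132 and 38. Both KO libraries lay below both NT libraries, and the log2 fold change was -2.82 ± 0.53 (SE, edgeR quasi-likelihood test, adjusted p = 0.0022). This call held under all 9 alternatives, with adjusted p of 2.23e-07 to 0.0355.

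Cubn had 0.495 and 1.3 CPM in KO mESCs, against 6.73 and 1.46 CPM in NT mESCs, so that NT library 2 stood close to KO library 2. Its log2 fold change was -2.22 ± 0.59 (adjusted p = 0.0179, edgeR). Without NT library 1 the value was -0.70 and the call was lost (adjusted p = 0.419), and DESeq2 did not call it either (0.208). Without KO library 1 it was -1.68 (0.0525), and the range over the 9 alternatives was 1.66e-09 to 0.419.

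The 5 other members tested in mESCs were not called. Dab2 had 2.56 and 3.18 CPM in KO mESCs, against 7.09 and 3.43 CPM in NT mESCs (log2 fold change -0.88 ± 0.31, adjusted p = 0.0627, edgeR). Sox17, a factor of extraembryonic and definitive endoderm, had 0.495 and 0.0309 CPM in KO mESCs, against 1.54 and 0.632 CPM in NT mESCs (-2.03 ± 0.70, adjusted p = 0.0601, edgeR). One read was all that KO library 2 held of Sox17. For its relative Sox7 the values were 0.815 and 0.247 CPM in KO and 1.45 and 0.961 CPM in NT mESCs (-1.18 ± 0.49, adjusted p = 0.115, edgeR). KO values of these 3 genes lay below the NT values as well. Gata4, which opens chromatin at endoderm and heart genes, overlapped between the groups, at 1.43 and 2.87 CPM in KO and 2.80 and 1.48 CPM in NT mESCs (-0.011 ± 0.37). Apoa1 also overlapped, at 0.320 and 0.216 CPM in KO and 0.526 and 0.302 CPM in NT mESCs (-0.64 ± 0.59).

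Across all 20159 genes in mESCs, 8.94% were called lower and 10.3% higher, so that 2 of 7 members lower and 0 of 7 higher is read against that background. At an unadjusted p under 0.05 there were 5 of 7, all lower, beside 3083 genes lower and 3309 higher of 20159. DESeq2 called 1 lower and 0 higher, beside 1557 genes lower and 1710 higher. KO values lay below NT values for 5 of the 7 members and for 29.2% of all genes. The median log2 fold change of the 7 was -1.18, and that of all genes 0.015. NT library 1 was above NT library 2 for all 7 members, by 1.51 times (Sox7) to 4.63 times (Cubn), while it was above it for 48.8% of all genes and by at least 1.5 times for 12.3%. Without NT library 1 only Gata6 was called of the 7, and without NT library 2 there were 4 calls, all lower. Over all genes the first of these fits called 1450 lower and 1699 higher of 19304. The other called 1021 lower and 1330 higher of 19572. In bulk RNA, fewer endoderm cells and less RNA per cell cannot be told apart.

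Other endoderm lists were called in part in mESCs. Of the 11 genes of parietal endoderm and basement membrane 5 were lower in KO mESCs and 0 higher. These included the collagen IV genes Col4a1 (18.1 CPM in KO, 61.9 CPM in NT mESCs, log2 fold change -1.78 ± 0.21, adjusted p = 8.4e-05, edgeR) and Col4a2 (-2.13 ± 0.26), the laminin gene Lama1 (-1.32 ± 0.12) and Nid1, which encodes the linker protein nidogen (-0.87 ± 0.09). Of 13 tested regulators of endoderm other than the members, 2 were lower and 3 higher. Pdgfra, the receptor that marks primitive endoderm, was at 0.285 CPM in KO and 1.67 CPM in NT mESCs (-2.55 ± 0.45, adjusted p = 0.0016, edgeR). The homeobox gene Otx2, active in visceral endoderm and in primed epiblast, was higher (2.42 ± 0.15), as were Foxa1 (2.28 ± 0.44) and Sall4 (0.45 ± 0.09). Beside these, 5 of 8 pluripotent cell markers were lower in KO mESCs, Klf4 (-1.88 ± 0.09) and Tfcp2l1 (-1.78 ± 0.16) among them. The summed level of these 8 markers was 5493 and 4912 CPM in KO and 6198 and 7028 CPM in NT mESCs. Its part in the lower endoderm genes was not tested. Of the 20 genes of the yolk sac endoderm list 12 were tested, with 2 higher and 2 lower. Trf, which encodes the iron carrier transferrin, was lower (7.31 CPM in KO, 18.2 CPM in NT mESCs, -1.32 ± 0.17), as was Cubn, while the apolipoprotein genes Apoa2 (0.62 ± 0.17) and Apom (1.71 ± 0.53) were higher. The endocytic list split as well, with 3 of 10 lower and 2 higher. The higher ones were Lrp2, which encodes megalin, the partner of cubilin (84.7 CPM in KO, 36.5 CPM in NT mESCs, 1.21 ± 0.17), and Fcgrt, the neonatal Fc receptor gene (1.21 ± 0.22). Of 7 anterior visceral endoderm genes the Wnt inhibitor gene Sfrp1 alone was called, lower, at -1.45 ± 0.12.

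In EBs, Gata4 was higher and Cubn and Ttr were lower in KO than in NT lines. Gata4 had 4.07 and 6.84 CPM in KO EBs, against 2.58 and 1.17 CPM in NT EBs. Both KO libraries were above both NT libraries, and the log2 fold change was 1.54 ± 0.33 (adjusted p = 0.0142, edgeR). All 9 alternatives kept this call, with adjusted p of 4.35e-06 to 0.0228. This gene is also used in heart and gut precursors, and the cardiac marker list summed to 35.3 and 32.9 CPM in KO EBs and 22.8 and 19.5 CPM in NT EBs, with 1 of 10 tested genes called higher. The part of such cells in the Gata4 level was not tested.

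Cubn had 0.845 and 0.375 CPM in KO EBs, against 4.82 and 1.82 CPM in NT EBs. The KO libraries were both lower, with a log2 fold change of -2.37 ± 0.46 (adjusted p = 0.0080, edgeR), and the call held under all 9 alternatives (adjusted p of 4.48e-09 to 0.0208). It was the one member called in the same direction in mESCs and EBs.

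Ttr had 0.275 and 0 CPM in KO EBs, against 2.79 and 0.408 CPM in NT EBs, which are 14 and 0 reads against 92 and 15. NT library 1 held most of the reads. The log2 fold change was -3.30 ± 0.90 (adjusted p = 0.0454, edgeR), and the call was lost without NT library 1 (-1.39, adjusted p = 0.438), with DESeq2 (0.581) and with the stricter filter on low counts (0.0643). Its adjusted p was 2.28e-07 to 0.581 over the alternatives. For Afp the reads were 3 and 0 in KO EBs and 14 and 8 in NT EBs, a ratio of 0.111 with a 95% counting interval of 0.0213 to 0.370, which covers counting error only. The test across libraries did not call it (adjusted p = 0.0874, edgeR). Visceral endoderm secretes both proteins, and KO EB library 2 held 0 reads of either.

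None of the 5 remaining members was called in EBs. Dab2 had 10.8 and 9.58 CPM in KO and 16.5 and 11.7 CPM in NT EBs (log2 fold change -0.46 ± 0.15, adjusted p = 0.104, edgeR). Apoa1 had 0.314 and 0.0865 CPM in KO and 1.03 and 0.327 CPM in NT EBs (-1.64 ± 0.67, adjusted p = 0.190, edgeR). For Sox7 the levels were 0.314 and 0.0577 CPM in KO and 0.668 and 0.408 CPM in NT EBs (-1.40 ± 0.65, adjusted p = 0.252, edgeR). KO libraries were below NT libraries in these 3 genes. Sox17 overlapped, with 0.963 and 1.04 CPM in KO and 1.00 and 0.599 CPM in NT EBs (0.33 ± 0.36). Gata6, lower in KO mESCs, overlapped in EBs at 0.432 and 0.288 CPM in KO and 0.546 and 0.272 CPM in NT EBs (-0.14 ± 0.54).

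Of all 20142 genes in EBs 4.62% were called higher and 2.77% lower, beside 1 of 9 and 2 of 9 members. KO values lay below NT values for 6 of 9 members and 24.4% of all genes, and above them for 1 of 9 and 26.2%. At an unadjusted p under 0.05 there were 6 of 9 members, beside 2350 genes higher and 1801 lower of 20142. DESeq2 called 1 higher and 1 lower, beside 762 genes higher and 492 lower. The median log2 fold change was -1.40 over the members and 0.0057 over all genes. As in mESCs, NT library 1 exceeded NT library 2 for all 9 members, by 1.41 times (Dab2) to 6.84 times (Ttr), against 50.8% of all genes that were higher in library 1 at all and 11.1% that were so by at least 1.5 times. Without NT library 1 there were 2 calls, Gata4 and Cubn, and without NT library 2 there were 6, of which 1 was higher and 5 lower. Over all genes the first of these fits called 937 higher and 549 lower of 19569. The other called 753 higher and 445 lower of 19521. Among the 10 genes of the endocytic apparatus 3 were lower in KO EBs and 0 higher, which besides Cubn were the lysosomal proteases Lgmn (25.5 CPM in KO, 35.04 CPM in NT EBs, -0.46 ± 0.09, adjusted p = 0.0094, edgeR) and Ctsh (-1.32 ± 0.33). Both were lower in KO mESCs too, at -0.45 ± 0.10 for Lgmn and -1.59 ± 0.43 for Ctsh. Of the 13 other endoderm regulators tested in EBs 2 were lower and 1 higher. Foxa1 was again higher (1.23 ± 0.27), while Otx2, higher in KO mESCs, was lower in KO EBs (-0.29 ± 0.08). Only Fst, which encodes the activin inhibitor follistatin, was called among the 11 parietal and basement membrane genes, and it was higher (0.95 ± 0.11). The yolk sac endoderm list had 0 genes higher and 2 lower of 16 tested, and both are members (Cubn and Ttr).

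**Figure D2:**
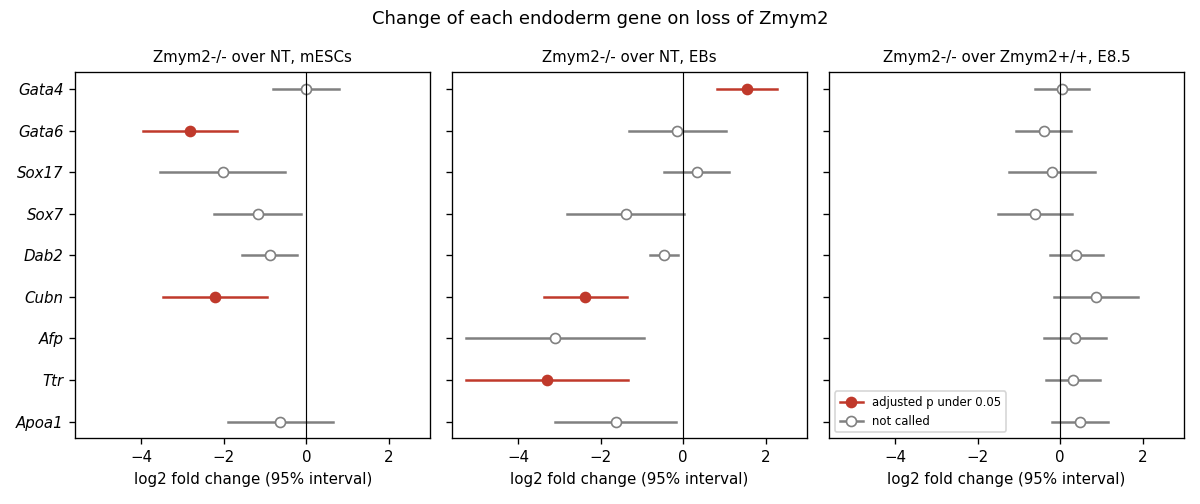
Log2 fold change of each member with its 95% interval from edgeR, for Zmym2-/- over NT mESCs (left), Zmym2-/- over NT EBs (middle) and Zmym2-/- over Zmym2+/+ embryos (right). Filled red points are past an adjusted p of 0.05: Gata6 and Cubn in mESCs, and Gata4, Cubn and Ttr in EBs, while in embryos every interval includes 0.

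The change with differentiation was measured by setting EBs against mESCs within each genotype, for the 7 members in both tables. Dab2 rose in both genotypes, by a log2 fold change of 1.78 ± 0.29 in KO lines (adjusted p = 0.00028, edgeR) and 1.35 ± 0.27 in NT lines (0.0011). Gata6 fell in NT lines (-2.30 ± 0.52, adjusted p = 0.0028, edgeR), while in KO lines its value was 0.39 ± 0.64. That call was lost without NT mESC library 1 (-1.40, adjusted p = 0.0769), with a range of 2.01e-05 to 0.0769 over 13 alternatives. In KO lines Gata4 rose (1.28 ± 0.42, adjusted p = 0.0246, edgeR) and so did Sox17 (1.84 ± 0.69, 0.0467), against values of -0.27 ± 0.44 and -0.52 ± 0.59 in NT lines that were not called. Gata4 was not called without KO EB library 2 (0.87, adjusted p = 0.193) or KO mESC library 1 (0.85, 0.164), and its adjusted p ranged from 4.24e-06 to 0.193. Sox17 was not called without KO mESC library 2 (0.96, 0.231), without either KO EB library (1.89, 0.111 and 1.79, 0.117), without either NT EB library (adjusted p = 0.0564 and 0.0540), which changes the shared estimate of spread, or with the stricter filter on low counts (0.0502). Its adjusted p ranged from 0.00208 to 0.231 over 13 alternatives.

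Calls were common in these comparisons. In KO lines 23.1% of 18926 genes were higher in EBs and 22.1% lower, and in NT lines 23% and 23.6%. So 3 of 7 higher in KO lines, and 1 of 7 higher and 1 of 7 lower in NT lines, are read against those shares. mESC and EB libraries share line numbers in their names, and the labels do not say whether a number marks the same clone at both stages. With the line number as a block, a fit that holds only if it does, Sox7 was also called lower, in KO lines (-1.56 ± 0.55, adjusted p = 0.0171, edgeR) and in NT lines (-1.22 ± 0.42, 0.0146), where 24.4% and 25.6% of genes were called lower. All 8 pluripotent cell markers fell in EBs of both genotypes.

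The difference between genotypes in this change was tested as a stage by genotype interaction. Without the block it called 0 of 7 members by edgeR and 0 by DESeq2, and 5.25% of all genes by edgeR. It had 3 of 7 members at an unadjusted p under 0.05, beside 2039 genes higher and 1694 lower of 18926. With the line number as a block, under the same condition, it called 3 of 7, all higher, beside 12.3% of all genes, 6.86% of them higher. Those were Gata4 (1.57 ± 0.33, adjusted p = 0.00081, edgeR, against 0.173 without the block), Gata6 (2.62 ± 0.68, 0.0067 against 0.0863) and Sox17 (2.35 ± 0.68, 0.0159 against 0.166). A positive value means a larger rise, or a smaller fall, in KO lines. Of the parietal and basement membrane list 5 of 11 genes were called higher in the test without the block, led by Fst (1.47 ± 0.22), Col4a1 (1.52 ± 0.29) and Nid1 (0.61 ± 0.13).

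In embryos 0 of 9 members were called, by edgeR or by DESeq2, and 0 had an unadjusted p under 0.05. With 1.18% of all genes not overlapping between genotypes, the values of every member did overlap. The count stands beside 0.51% of 22729 genes called higher in Zmym2-/- embryos and 0.0132% called lower. Intervals were wide: that of Cubn, with the largest difference, ran from -0.14 to 1.88 on the log2 scale, and that of Gata4, with the smallest, from -0.59 to 0.70. The median log2 fold change was 0.32 over the members and 0.025 over all genes. When the name number was a block, over the 7 embryos of numbers with both genotypes, edgeR again called 0 of 9 members. That fit called 1 gene higher and 0 lower of 21689. It had 4 of 9 members at an unadjusted p under 0.05, beside 1655 genes higher and 1585 lower.

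Cubn ranged from 215.3 to 1470 CPM in Zmym2-/- embryos (median 441.4) and from 209.6 to 609.2 CPM in Zmym2+/+ embryos (median 309.7). Its log2 fold change was 0.87 ± 0.47 (adjusted p = 0.477, edgeR). Dab2 ranged from 214.5 to 705.4 CPM in Zmym2-/- embryos (median 292.8) and from 199.8 to 432.7 CPM in Zmym2+/+ embryos (median 273.1), a change of 0.40 ± 0.30 (adjusted p = 0.620, edgeR). Zmym2-/- embryos 5 and 6 were the highest of all 12 for both genes, and the 4 others lay within the Zmym2+/+ range for Cubn and Dab2.

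Among secreted proteins, Apoa1 ranged from 294.5 to 1390 CPM in Zmym2-/- embryos (median 722.5) and from 352.7 to 863.8 CPM in Zmym2+/+ embryos (median 540.0), and the difference on the log2 scale was 0.48 ± 0.32 (adjusted p = 0.566, edgeR). Ttr ranged from 142.1 to 619.0 CPM (median 337.5) in Zmym2-/- and from 213.3 to 441.8 CPM (median 299.6) in Zmym2+/+ embryos (0.32 ± 0.31, adjusted p = 0.699, edgeR). For Afp the range was 280.3 to 961.2 CPM (median 577.1) in Zmym2-/- and 233.4 to 798.6 CPM (median 407.2) in Zmym2+/+ embryos (0.37 ± 0.35, adjusted p = 0.699, edgeR). Zmym2-/- embryo 6 was the highest of the 12 for all 3 genes, and Zmym2-/- embryo 1 the lowest for Apoa1 and Ttr.

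The transcription factors were highest in another embryo. Gata6 ranged from 32.3 to 50.9 CPM in Zmym2-/- embryos and from 24.3 to 108.2 CPM in Zmym2+/+ embryos, a log2 difference of -0.40 ± 0.31 (adjusted p = 0.632, edgeR). Sox7 lay between 8.67 and 15.8 CPM in the Zmym2-/- embryos, against 5.47 and 41.9 CPM as the lowest and highest Zmym2+/+ levels (-0.60 ± 0.42, 0.580). Gata4 ranged from 40.2 to 96.9 CPM in Zmym2-/- and 24.9 to 102.7 CPM in Zmym2+/+ embryos (0.05 ± 0.30, adjusted p = 0.963, edgeR). Sox17 ranged from 8.34 to 53.6 CPM in Zmym2-/- and 8.26 to 55.6 CPM in Zmym2+/+ embryos (-0.20 ± 0.49, 0.901). Zmym2+/+ embryo 4 was the highest of the 12 for all 4 factors, and Zmym2+/+ embryo 1 was next for Gata6 and Sox7.

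**Figure D3:**
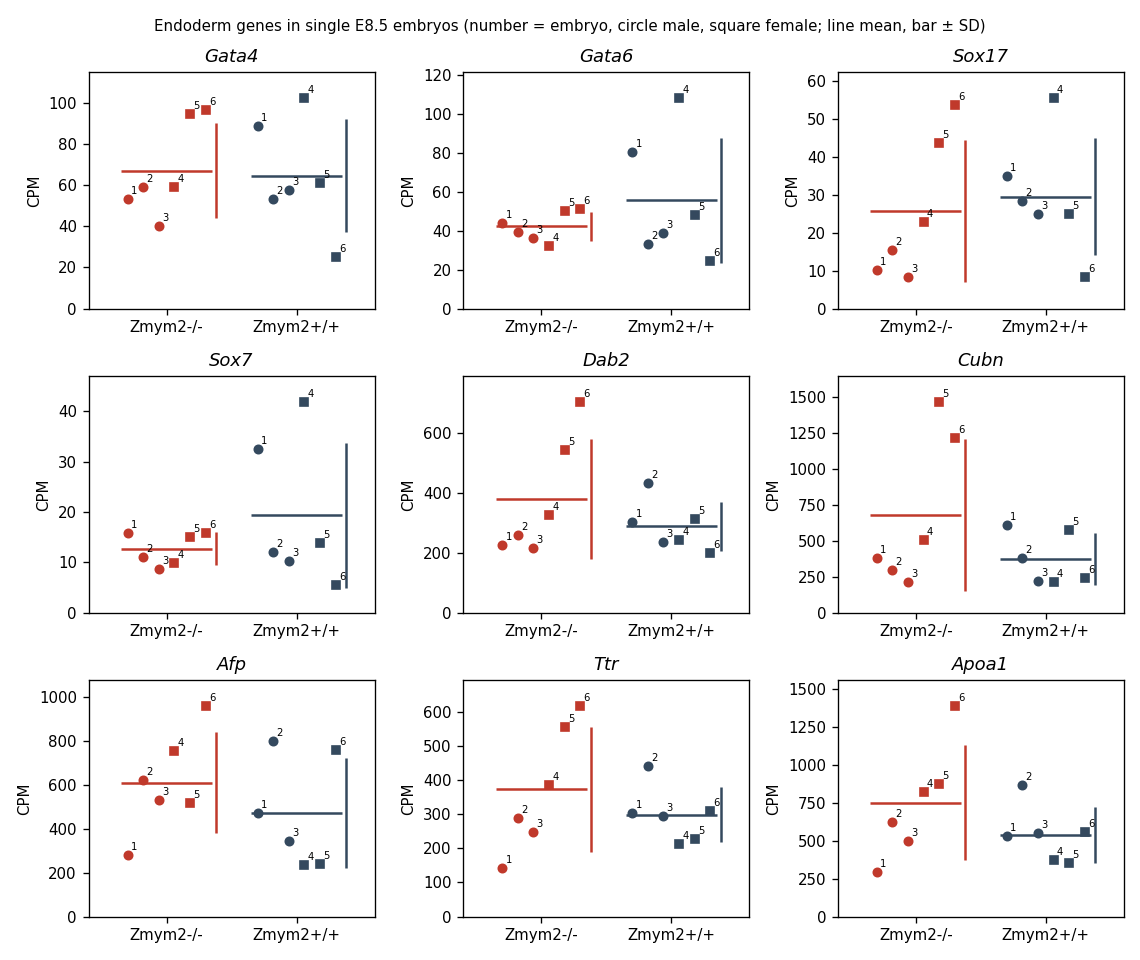
CPM of each member in single E8.5 embryos, Zmym2-/- in red left of Zmym2+/+ in dark blue, with the embryo's number, circles for males, squares for females, a line at the mean and a bar for ± SD (n = 6 each). Zmym2-/- embryos 5 and 6 are highest for Cubn, Dab2 and Ttr, and Zmym2+/+ embryos 1 and 4 for Gata6 and Sox7.

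Zmym2+/+ embryos 1 and 4 also stood apart in genes of parietal endoderm. The 11 genes of that list summed to 11808 and 14574 CPM in them, against 2076 to 3857 CPM in the 4 other Zmym2+/+ embryos and 2251 to 3867 CPM in the 6 Zmym2-/- embryos. Col4a1 was at 2197 and 3166 CPM in these embryos, and at 229.2 to 874.7 CPM in the 10 others. Both embryos carry the same name number, as does Zmym2-/- embryo 4, whose sum was 3867 CPM. Without embryos 1 and 4, an alternative chosen after the data were seen, the log2 fold change was 0.21 for Gata6 and 0.28 for Sox7, both positive, and 0 of 9 members were called by edgeR, with 0 at an unadjusted p under 0.05, beside 0.309% of genes higher and 0.00441% lower. Whether more parietal endoderm was taken with these embryos was not tested.

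**Figure D4:**
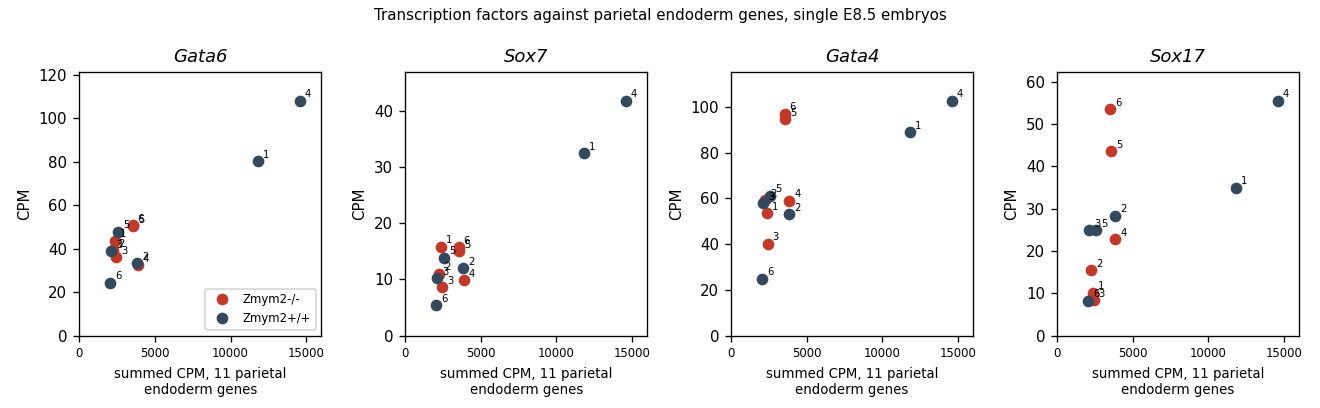
CPM of the 4 transcription factors against the summed CPM of 11 parietal endoderm and basement membrane genes in 12 single E8.5 embryos, Zmym2-/- in red and Zmym2+/+ in dark blue, with embryo numbers. Zmym2+/+ embryos 1 and 4 sit apart at 11808 and 14574 CPM with the highest Gata6 and Sox7, while the 10 others lie between 2076 and 3867 CPM.

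Leaving out Zmym2-/- embryos 5 and 6, also chosen after the data were seen, left 0 of 9 members called by edgeR. Of all genes 0.337% were called higher and 0.00443% lower. At an unadjusted p under 0.05 there was 1 member, beside 1047 genes higher and 920 lower of 22570. The log2 fold changes were -0.10 for Cubn, -0.17 for Dab2, -0.17 for Ttr, 0.055 for Apoa1 and 0.21 for Afp. The embryos left out are both female. Cardiac markers summed to 336.7 and 69.2 CPM in them, the lowest of the 12, where the 10 others had 411.7 to 1291 CPM. Pluripotent cell markers summed to 220.1 and 454.6 CPM, the highest, where the 10 others had 31.0 to 114.4 CPM. The part of these differences in the endoderm levels was not tested.

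By sex, the fold change was positive for 7 of 9 members in females, all but Gata6 and Sox7, and negative for all 9 in males. In females the log2 fold change was 1.61 ± 0.52 for Cubn, 1.26 ± 0.29 for Apoa1, 1.05 ± 0.25 for Ttr and 1.04 ± 0.33 for Dab2, and in males it was -0.41 ± 0.34, -0.43 ± 0.29, -0.59 ± 0.27 and -0.45 ± 0.22 for the same genes. The sex by genotype interaction called 0 of 9 members and 0% of genes. Its smallest adjusted p was 0.0654 for Ttr (1.67 ± 0.40), followed by 0.0713 for Apoa1 (1.73 ± 0.44) and 0.0745 for Dab2 (1.54 ± 0.41, edgeR for each). This interaction was chosen after the data were seen. In females 0 of 9 members were called by edgeR, beside 0.0512% of genes higher and 0.0186% lower. At an unadjusted p under 0.05 there were 4 of 9, beside 1201 genes higher and 895 lower of 21505. In males alone Sox17 was called lower (-1.35 ± 0.27, adjusted p = 0.0476, edgeR), and 0 members higher, beside 1.17% and 0.604% of genes, and all 3 Zmym2-/- males share a name number that no other embryo has. Genotype and that number cannot be told apart in males. Over the 26 alternatives in embryos the adjusted p of Sox17 ran from 0.0476 to 1.00.

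Yolk sac endoderm was also measured as a share of each embryo's RNA, over a list of 20 genes that holds Afp, Ttr, Apoa1, Cubn and 16 others. The list took 0.254%, 0.396%, 0.313%, 0.536%, 0.795% and 0.997% of counts in Zmym2-/- embryos 1 to 6, and 0.376%, 0.470%, 0.310%, 0.206%, 0.337% and 0.383% in Zmym2+/+ embryos 1 to 6. Exact 95% Clopper-Pearson intervals were narrow, 0.995% to 1.00% in the highest embryo and 0.205% to 0.208% in the lowest, and cover counting error only. The mean was 0.549% ± 0.292 in Zmym2-/- and 0.347% ± 0.0879 in Zmym2+/+ embryos (SD, n = 6 each). Zmym2-/- embryos 4, 5 and 6, the females, were above all Zmym2+/+ embryos, and Zmym2-/- embryos 1 to 3, the males, were within their range. The ratio of geometric means was 1.45, not past the spread between embryos (exact permutation test on log2 values, two-sided, p = 0.169, smallest possible 0.00216). Without Zmym2-/- embryos 5 and 6 the ratio was 1.07 (exact permutation p = 0.733). Among embryos whose names begin with H it was 1.96 (2 against 4, exact permutation p = 0.133, the smallest possible) and with J 1.22 (4 against 2, exact permutation p = 0.800). The share was not tested within name numbers, of which 3 hold both genotypes. Zmym2-/- embryo 4 was at 0.536%, against 0.376% and 0.206% in Zmym2+/+ embryos 1 and 4 of its number. Zmym2-/- embryo 5 was at 0.795%, against 0.470% in Zmym2+/+ embryo 2. Zmym2-/- embryo 6 was at 0.997%, against 0.310% in Zmym2+/+ embryo 3. The number of Zmym2-/- embryos 1 to 3 holds no Zmym2+/+ embryo.

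The 4 members took 0.119% to 0.437% of all counts in Zmym2-/- and 0.0974% to 0.221% in Zmym2+/+ embryos. Without the members the list ran from 0.135% to 0.560% and from 0.109% to 0.249%. Cubn alone took 0.0228% to 0.146% in Zmym2-/- embryos and 0.0198% to 0.0592% in Zmym2+/+ embryos.

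**Figure D5:**
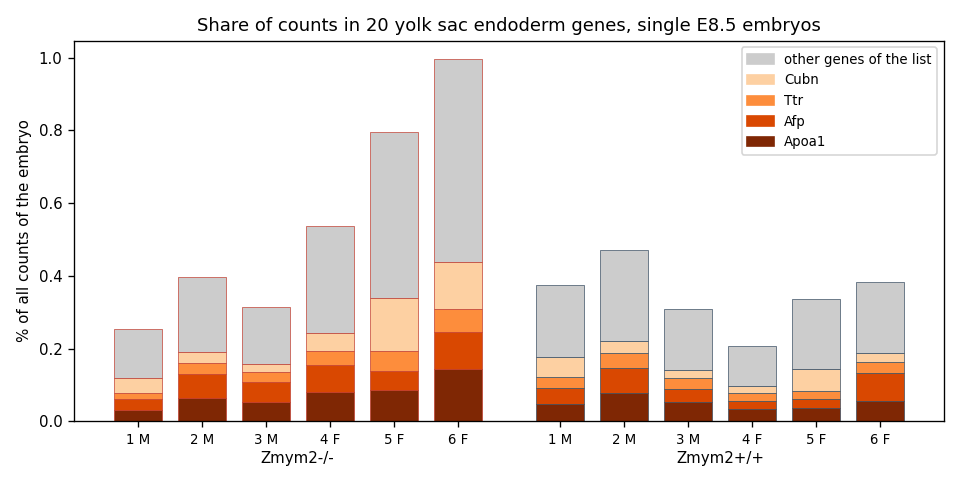
Percent of all counts in 20 yolk sac endoderm genes in each E8.5 embryo, Zmym2-/- (left) and Zmym2+/+ (right), labelled by number and sex, with stacked parts for Apoa1, Afp, Ttr, Cubn and the 16 other genes. Zmym2-/- embryos 4, 5 and 6 reach 0.536% to 0.997%, and the Zmym2+/+ embryos 0.206% to 0.470%.

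Members were then related to marker sums over the 12 embryos. Of 36 relations (9 members, 4 lists) 10 had an adjusted p of Pearson's r under 0.05, with 5 for yolk sac endoderm without the members, 5 for cardiac markers and 0 for endothelial or gut endoderm markers. Ttr followed the yolk sac sum most closely (r = 0.939, permutation p = 1e-05, the smallest possible, adjusted p = 0.00018, and rho = 0.923, permutation p = 5e-05, adjusted p = 0.00108). Its r was 0.875 without the 2 embryos farthest from the median, 0.969 within Zmym2-/-, 0.857 within Zmym2+/+, 0.945 within names in H and 0.934 within names in J. Apoa1 (r = 0.907, rho = 0.888), Dab2 (r = 0.909, rho = 0.804) and Cubn (r = 0.837, rho = 0.755) had related values, with permutation p of r of 2e-05, 0.00012 and 0.0011, of rho of 0.0003, 0.0022 and 0.0059, and adjusted p of r of 0.00024, 0.00108 and 0.00571. Cubn's r was 0.536 without the 2 farthest embryos, and those of Apoa1 and Dab2 were 0.851 and 0.724. Afp was at the limit (r = 0.689, permutation p = 0.013, adjusted p = 0.0484, and rho = 0.713, permutation p = 0.012, adjusted p = 0.0539), with r of 0.741 without the 2 farthest embryos.

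With cardiac markers the relation was negative for Dab2 (r = -0.928, permutation p = 1e-05, rho = -0.916, permutation p = 6e-05), Apoa1 (r = -0.833, permutation p = 0.00044, rho = -0.804, permutation p = 0.0025), Ttr (r = -0.818, permutation p = 0.00061, rho = -0.846, permutation p = 0.0011), Cubn (r = -0.749, permutation p = 0.0038, rho = -0.671, permutation p = 0.02) and Sox17 (r = -0.702, permutation p = 0.0041, rho = -0.664, permutation p = 0.022). Without the 2 embryos farthest from the median r was -0.894, -0.672, -0.742, -0.517 and -0.691 for these genes in this order. Adjusted p of r were 0.00018 to 0.0163, while adjusted p of rho were 0.079 for Cubn and 0.0806 for Sox17. Sox17's r was 0.157 within names in H and -0.921 within names in J. The yolk sac and cardiac sums were themselves related at r = -0.866 over these embryos. Gata4, Gata6 and Sox7 had no adjusted p of r under 0.05 with any of the 4 lists, with r of 0.339, -0.157 and -0.128 for the yolk sac sum. Within Zmym2-/- embryos these r were 0.906, 0.513 and 0.392, and within Zmym2+/+ embryos -0.390, -0.584 and -0.438.

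Between members, r over the 12 embryos is given as a description, from shared libraries. Gata4, Gata6, Sox17 and Sox7 were related to each other at 0.682 to 0.972, with Gata6 and Sox7 highest. Afp, Ttr and Apoa1 were related at 0.753 to 0.961. Dab2 and Cubn were related at 0.872, and Afp and Gata6 at -0.537. Of 9484 genes with a mean of at least 10 CPM, those outside every list whose level was most like the sum of Afp, Ttr, Apoa1 and Cubn included Tdh (r = 0.965), Slc39a5 (0.957), Slc6a4 (0.956), Aqp3 (0.955), P2rx4 (0.954), Hpn (0.952), Plbd1 (0.952), Slc16a10 (0.951) and Ctsc (0.943). Several of these encode transporters, such as the zinc transporter Slc39a5 and the water and glycerol channel Aqp3.

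The bases before the start of 3 members are shown, since Afp and Apoa1 moved together across embryos and Cubn differed in the lines. RefSeq promoters (GRCm38.p6) held 4 of the 9 members, namely Dab2, Cubn, Afp and Apoa1. Afp is chr5:90490464-90490713 on the plus strand, Apoa1 is chr9:46228380-46228579 on the plus strand, where bases that GENCODE counts as transcribed were left out, and Cubn is chr2:13491877-13492126 on the minus strand. Capitals mark matches, on either strand, to the short motifs of 2 families of endoderm factors, the FOXA motif TGTTTGC and the GATA motif AGATAA, which do not overlap here.
Afp: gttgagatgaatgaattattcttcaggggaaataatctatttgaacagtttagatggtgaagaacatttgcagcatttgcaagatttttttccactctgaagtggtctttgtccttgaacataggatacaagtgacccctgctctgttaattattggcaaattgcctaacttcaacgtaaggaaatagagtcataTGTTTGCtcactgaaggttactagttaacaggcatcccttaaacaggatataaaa
Apoa1: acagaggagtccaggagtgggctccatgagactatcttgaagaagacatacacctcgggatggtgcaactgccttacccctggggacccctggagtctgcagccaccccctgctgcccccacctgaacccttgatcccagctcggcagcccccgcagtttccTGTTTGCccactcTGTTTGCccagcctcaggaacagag
Cubn: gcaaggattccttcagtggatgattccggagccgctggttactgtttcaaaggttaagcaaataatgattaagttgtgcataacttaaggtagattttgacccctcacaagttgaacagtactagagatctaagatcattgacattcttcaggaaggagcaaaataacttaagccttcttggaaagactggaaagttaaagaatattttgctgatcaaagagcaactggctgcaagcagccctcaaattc
Afp held TGTTTGC at 55 to 49 bases before the RefSeq start, and Apoa1 held TGTTTGC at 88 to 82 and at 75 to 69. Cubn and the first start of Dab2 held neither motif. Over 250 bases before 32851 RefSeq starts, TGTTTGC was found in 4.30% and AGATAA in 9.99%. A match is a description of the letters only.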

How the data were processed

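RNA-seq was made from 12 single E8.5 embryos and 8 libraries of V6.5 mESCs and EBs with a stranded mRNA kit. The submitters' processing notes name Trimmomatic 0.34, STAR 2.7.8a, Picard 2.9.0, HTSeq and StringTie 1.3.5, with the build mm10 (GRCm38). The authors deposited raw counts per gene in 3 tables, with the authors' normalized counts beside them, used here only as a score in a check of the columns, and RPKM values in separate tables for embryos and for lines. The RPKM values were used only for levels between genes. The authors' comparison columns were not used.

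Raw counts were tested with the edgeR quasi-likelihood test (edgeR 4.0.16, R 4.3.3) after TMM scaling, on genes with at least 10 counts in all libraries of a fit together (20159 in mESCs, 20142 in EBs, 22729 in embryos, 18926 in both line tables), with Benjamini-Hochberg adjustment over all genes and a threshold of 0.05. CPM follow TMM scaling, and 1 CPM stood for at least 32.0 counts. Shares of embryo RNA were compared by an exact permutation test in scipy 1.17.1 (Python 3.11.15), and relations over embryos with 100000 permutations on log2 CPM with a pseudocount of 0.5. In simulated data the tests called 85 of 100 genes changed 2-fold in mESCs, 87 of 100 in EBs, 36 of 100 in embryos and 76 of 100 for the interaction, and 100, 99, 82 and 96 of 100 genes changed 4-fold. The changed genes were drawn only from those above a floor of expected reads per library. In mESCs Gata6, Sox17, Sox7 and Apoa1 lay below that floor, and in EBs Gata6, Sox17, Sox7, Afp, Ttr and Apoa1. These recoveries do not apply to such low genes. With 2 libraries a group, p-values measure the spread between clones, which carries other clonal differences as well.

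Column names carry a line number, by which mESC and EB libraries were paired as an alternative. The labels do not say whether a number marks the same clone at both stages. Deviations of the same line number correlated at 0.374 in KO and 0.153 in NT lines. Replicate numbers did not pair KO with control samples (-0.0418 in mESCs, -0.0359 in EBs, -0.452 to 0.413 in embryos). Genes named are Zmym2, the 9 members, from each list up to 4 with the smallest p in a comparison, and the 10 genes outside all lists most like the summed serum protein and Cubn level. Some genes that this rule takes are not reported here. Lists held yolk sac endoderm, endocytic apparatus, other endoderm regulators, parietal endoderm, anterior visceral endoderm and gut endoderm genes, and markers of cardiac, endothelial, erythroid, trophoblast, decidual and pluripotent cells. Members and lists were chosen with earlier results of these data known. Alternatives were RLE scaling, DESeq2 1.42.0, other filters on low counts, each library left out, blocks, covariates and subsets by sex or by name. The alternatives without Zmym2-/- embryos 5 and 6 or without Zmym2+/+ embryos 1 and 4, and the sex by genotype test, were chosen after the data were seen, as were the promoter motifs.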

Additional observations from a re-analysis of the deposited data

Results flagged for a closer look

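The change from mESCs to EBs differed between KO and NT lines for 3 members once the line number was entered as a block, by a test of that difference. The labels do not say whether a number marks the same clone at both stages. The interaction, KO change minus NT change on the log2 scale, was 1.57 for Gata4, 2.35 for Sox17 and 2.62 for Gata6, beside 12.3% of all genes called. For Gata6 it combines a fall of the NT level with a KO level that was low at both stages, and for Gata4 and Sox17 a rise in KO lines. Without the block 0 of these were called. No member had a single embryo far from the others of its genotype among the 20 groups tested for this, where chance flags about 1 in 20.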

How the results depend on the processing

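The count of members called moved with the setting. In mESCs it was 2, and 1 with DESeq2, and in EBs it was 3. With replicate numbers as a block, which do not pair the samples, 5 members were called in mESCs (Gata6, Cubn, Sox17, Sox7 and Dab2, all lower), 6 in EBs and 0 in embryos. Over all genes this block called 2064 higher and 1866 lower of 20159 in mESCs. In EBs it called 1232 higher and 841 lower of 20142, and in embryos 49 and 0 of 22729. With the line number as a block the interaction called 3, where it called 0 without, and this pairing changed no other call than those given in the report. Leaving out 1 library gave 1 to 4 calls in mESCs, 2 to 6 in EBs, 0 in embryos, 1 to 3 for EBs against mESCs in KO lines, 1 to 2 in NT lines and 0 to 1 for the interaction. Over all genes these fits called 1330 to 1996 higher and 1021 to 1862 lower in mESCs (19287 to 19572 tested). In EBs they called 753 to 1096 and 445 to 753 (18955 to 19569 tested). For embryos the counts were 78 to 113 and 1 to 39 (22650 to 22723 tested). Of 18926 genes, 3398 to 4366 were higher and 3165 to 4105 lower in KO lines. NT lines had 3369 to 4580 and 3441 to 4639, and the interaction 216 to 719 and 174 to 502. In males alone 1 member was called. In Zmym2+/+ embryos the means of the members spanned 74.5-fold in RPKM and 27.8-fold in CPM, which ignores length. The yolk sac share kept its direction in all 21 alternatives, at 0.33 to 0.72 (log2) with 1 embryo left out. None of these split the embryos by sex. In males the share was 0.254%, 0.396% and 0.313% in Zmym2-/-, against 0.376%, 0.470% and 0.310% in Zmym2+/+ embryos. In females it was 0.536%, 0.795% and 0.997%, against 0.206%, 0.337% and 0.383%.

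Directions turned in these cases, none of them a call in the main test. In mESCs Gata4 was 0.00053 with DESeq2 and 0.0019 with the stricter filter. In embryos, males alone gave negative values for Gata4 (-0.36), Dab2 (-0.45), Cubn (-0.41), Afp (-0.14), Ttr (-0.59) and Apoa1 (-0.43). Without Zmym2-/- embryos 5 and 6 Gata4 (-0.29), Dab2 (-0.17), Cubn (-0.098) and Ttr (-0.17) were negative, and without Zmym2+/+ embryos 1 and 4 Gata6 (0.21), Sox17 (0.23) and Sox7 (0.28) were positive. Names in J alone gave 0.43 for Gata6, 0.39 for Sox17 and 0.71 for Sox7, and Sox17 was also positive in females (0.43), with the name prefix as covariate (0.14) and with the name number as block (0.20). The cause was not tested.

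With 1 library left out, values spanned 0 for Gata4 in mESCs (-0.60 to 0.53), for Gata6 (-0.57 to 0.42) and Sox17 (-0.0050 to 0.73) in EBs, for Gata4 (-0.11 to 0.23) and Sox17 (-0.56 to 0.071) in embryos, for Cubn (-1.29 to 0.32) and Apoa1 (-1.65 to 0.17) between stages in KO lines, and for Gata4 (-0.95 to 0.28), Sox17 (-1.0 to 0.29), Cubn (-1.25 to 1.14) and Apoa1 (-0.43 to 1.24) in NT lines. In the interaction they spanned 0 for Sox7 (-1.96 to 0.90), Dab2 (-0.21 to 0.84), Cubn (-1.68 to 0.71) and Apoa1 (-2.27 to 0.042). Depth limits every member but Gata4 and Dab2 in lines, where single libraries hold under 20 reads.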

Other observations

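Other lists gave these counts of higher and lower genes in KO lines. Gut endoderm genes had 3 higher and 2 lower of 13 tested in mESCs and 2 and 1 of 13 in EBs. Endothelial markers had 3 higher and 0 lower of 10 in mESCs and 2 and 0 of 11 in EBs, led by Tie1, a receptor of vessels, at a log2 fold change of 3.61 ± 0.42 in EBs. Cardiac markers had 3 higher and 1 lower of 10 in mESCs. Erythroid markers had 0 higher and 1 lower of 4 in mESCs and 0 of 6 in EBs, trophoblast markers 1 higher of 4 and 1 higher of 5, and decidual markers 1 higher and 1 lower of 6 and 0 of 5. In embryos, where no list gene passed the edgeR test, the median log2 fold change was 0.45 for yolk sac endoderm, 0.45 for other endoderm regulators and -1.11 for parietal endoderm, beside 0.025 for all genes. Without Zmym2-/- embryos 5 and 6 these medians were -0.027, 0.026 and -1.26 for the same lists in this order, and without Zmym2+/+ embryos 1 and 4 they were 0.32, 0.44 and 0.32. Trophoblast markers summed to 117.5 to 1020 CPM in Zmym2-/- and 75.5 to 1808 CPM in Zmym2+/+ embryos, and decidual markers to 47.0 to 590.8 CPM and 66.9 to 510.3 CPM.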
